A study of Ovis aries with 16 samples.

Results

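The comparison concerned nucleus pulposus cells (NPC) and annulus fibrosus cells (AFC) of the old sheep, which made up 8 of the 16 libraries of the series. Libraries were taken by their labels, with 4 NPC and 4 AFC libraries from female Vendée sheep aged 7 to 8 years. The NPC and AFC libraries of a sheep carried the same animal number, so that they formed 4 pairs, named O1 to O4 here. The labels name no treatment. The lumbar discs of each animal had been dissected into nucleus and annulus, digested, and grown on plastic in serum-containing medium to passage 1. The other 8 libraries came from the NPC and AFC of 4 female lambs of 6 months, Y1 to Y4, cultured in the same way, and they served as animals in which the differences of old sheep could be looked up again.

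The nucleus pulposus is the hydrated core of the intervertebral disc, and its cells sit in a gel of aggrecan and type II collagen, partly in the place of notochordal cells that are lost as the animal matures. The annulus fibrosus is the ring around it, in which elongated cells lay down oriented lamellae rich in type I collagen. In monolayer culture both cell types tend to lose these traits and to become fibroblast-like, so the comparison asks which differences are present between the cultured cells. All libraries came from cultured cells, and none from disc tissue or freshly isolated cells. Whether a difference was kept from the disc or arose in culture was therefore not tested. The count table lists genes by Ensembl identifier, and gene symbols could be found here for 0 of them. Aggrecan, the collagens and the other markers of nucleus and annulus were therefore not analysed here, and the tissue labels could not be checked against them. Genes are described below by their level and by their difference within each animal.

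The old libraries held between 41933700 and 51800007 reads counted on genes (median 49023255), and between 18405 and 19128 genes had a read in a library. The 10 most abundant genes made up 15.6% to 23.7% of the reads. Levels are given as CPM, the reads of a gene scaled to the size of its library after TMM normalisation. Of the 30722 genes of the table, 15521 passed the low-count filter. A difference is NPC minus AFC on the log2 scale, so that a positive value means a higher level in NPC, and 1 unit is a 2-fold difference. A gene was called when its adjusted p was under 0.05 in edgeR's quasi-likelihood test with the animal as a term of the model. The libraries were bulk RNA, so a smaller share of cells that express a gene and a lower level in every cell cannot be told apart.

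Old NPC and old AFC differed in 458 genes, or 2.95% of those tested. Of these, 259 genes (1.67%) were higher in NPC and 199 (1.28%) were higher in AFC. Their median absolute log2 fold change was 1.48, with a middle range of 0.89 to 2.37, against a median of 0.21 over all genes tested. Genes higher in NPC had a median of 1.5 and genes higher in AFC one of 1.36. Below 2-fold lay 141 of the called genes. Between 2-fold and 4-fold lay 164 genes, 108 of them higher in NPC and 56 higher in AFC. Another 85 genes lay between log2 fold changes of 2 and 3, 42 between 3 and 4, and 26 at 4 or more, of which 14 were higher in NPC and 12 in AFC. Without adjustment, 2659 genes had a p under 0.05 in edgeR. The number called moved widely with the fit, from 49 genes with the 8 old libraries alone, or 16 without the animal term, to 1436 in DESeq2 with the animal term, and 32 genes had an adjusted p under 0.01 in edgeR.

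The called genes were spread over the whole range of expression. Among genes with a mean below 1 CPM over the old libraries, 64 of 2816 were called (2.27%), and the median size of their log2 fold change was 2.83. Between 1 and 10 CPM, 143 of 3825 genes were called (3.74%), with a median of 1.83. From 10 to 100 CPM there were 173 of 7246 (2.39%), with a median of 1.16. Above 100 CPM there were 78 of 1634 (4.77%), of which 51 were higher in NPC and 27 in AFC, and their median was 0.89. The median standard error of a fold change over the genes tested fell from 0.50 below 1 CPM to 0.15 above 100 CPM. In the plot of fold change against level, the called genes below 1 CPM accordingly lay far from 0, while those above 100 CPM reached closer to it.

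**Figure D1:**
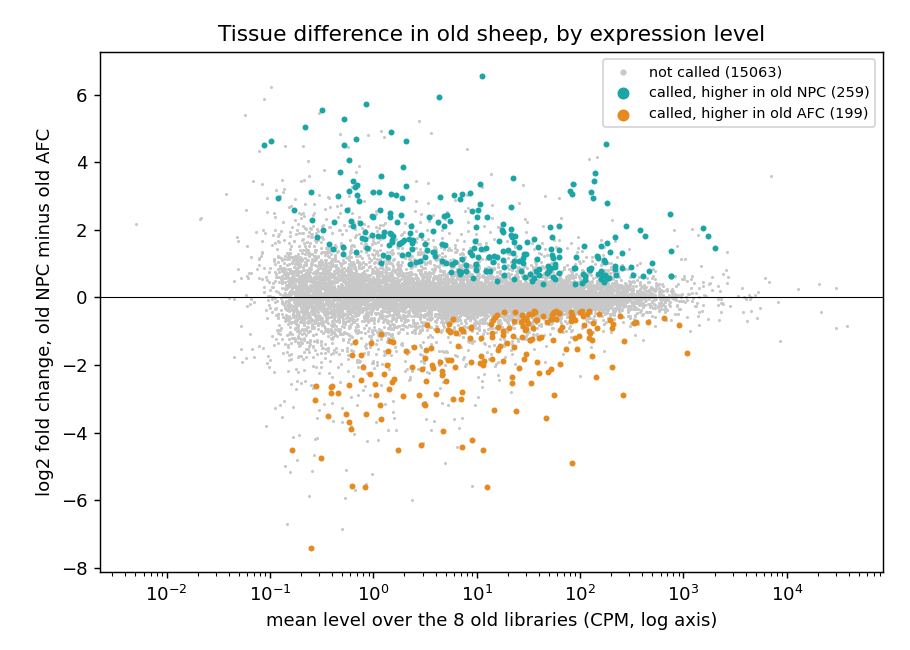
Log2 fold change between old NPC and old AFC (vertical axis) against the mean level over the 8 old libraries in CPM (horizontal log axis), with 1 point for each of the 15521 genes tested. Turquoise points are the 259 genes called higher in NPC, orange points the 199 called higher in AFC, and grey points were not called, and the called genes span levels from below 1 CPM to above 100 CPM.

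In terms of reads, the genes called higher in NPC took between 2.15% and 4.04% of an old NPC library (2.96% ± 0.79, SD, n = 4) and between 0.86% and 1.37% of an old AFC library (1.17% ± 0.22, SD, n = 4). The genes called higher in AFC took 1.47% ± 0.26 (SD, n = 4) of old AFC libraries and 0.71% ± 0.10 (SD, n = 4) of old NPC libraries. These shares describe the genes that the test had chosen on the same libraries. In the lambs, whose libraries entered the spread but not the fold change of old sheep, the genes called higher in NPC took 2.38% ± 0.27 (SD, n = 4) of young NPC and 1.82% ± 0.41 (SD, n = 4) of young AFC libraries. The genes called higher in AFC took 1.19% ± 0.057 (SD, n = 4) of young AFC and 0.88% ± 0.0092 (SD, n = 4) of young NPC libraries. For this second set all 4 young AFC libraries, with 1.13% or more, lay above all 4 young NPC libraries, with 0.884% or less, whereas for the first set the young libraries overlapped. Within each lamb NPC still lay above AFC for the first set. The shares were 2.705% against 1.646% in Y1, 2.05% against 1.432% in Y2, 2.423% against 2.389% in Y3 and 2.335% against 1.814% in Y4.

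Within the animals, 456 of the 458 called genes differed in the same direction in all 4 old sheep. Over all genes tested, 3685 (23.7%) did so in the direction of their fold change, 1930 of them higher in NPC and 1755 higher in AFC. The levels themselves overlapped more often, because the animals differed in their overall level of a gene. In 303 called genes, 169 higher in NPC and 134 higher in AFC, all 4 libraries of one tissue lay above all 4 of the other, and in 155 the libraries overlapped. Over all genes 1209 (7.79%) were separated in this way, 593 in favour of NPC and 616 in favour of AFC, and 906 of them were not called. A difference of at least 2-fold in the same direction in all 4 old sheep was found in 299 genes, 173 higher in NPC and 126 higher in AFC, of which 191 were called. In 49 genes the difference was at least 4-fold in each of the 4.

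The animals did not contribute alike. Over all genes tested, the SD of the log2 difference was 0.79 in O1, 1.14 in O2, 0.89 in O3 and 0.72 in O4. O2 thus had the widest differences, with 3948 genes at 2-fold or more, against 1699 to 2456 in the other old sheep. In O2 252 genes differed at least 4-fold while all 3 other old sheep stayed under 2-fold, and the corresponding numbers were 24 in O1, 49 in O3 and 31 in O4. Over the called genes, which the test had chosen for like differences in these 4 animals, the median difference in the called direction was 1.39 in O1, 1.45 in O2, 1.39 in O3 and 1.22 in O4. The SD over all genes was 0.89 ± 0.18 (SD, n = 4) in old sheep and 0.74 ± 0.12 (SD, n = 4) in lambs, a difference of 0.15 that did not exceed the variation among animals (two-sided exact permutation test with 70 relabellings, p = 0.2, where the smallest possible p is 0.0286).

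The number of called genes depended strongly on single animals. Without O1 the fit called 35 genes and without O3 it called 37, against 165 without O4 and 299 without O2. Of the 458 genes, 35 were still called without O1, 211 without O2, 36 without O3 and 143 without O4. The direction also shifted with O2, since 56.6% of the called genes were higher in NPC with all animals and 44.8% without O2. A total of 25 genes were called whichever old sheep was left out, 13 higher in NPC and 12 higher in AFC. Their absolute log2 fold changes lay between 1.41 and 5.61 (median 2.80), and their mean level in the higher tissue lay between 1.27 and 341 CPM. In 21 of the 25 genes, against 7.79% of all genes tested, the NPC and AFC libraries of old sheep did not overlap, which describes genes that had been chosen on these libraries. Each of these fits rested on 3 pairs of old libraries in place of 4.

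Among these 25 genes, 15 had levels that did not overlap and a mean of at least 10 CPM in the higher tissue, and the 2 with the largest fold change in each direction are given by identifier. ENSOARG00020025758 was at 67.2 CPM in the NPC of O1, 233 in O2, 108 in O3 and 196 in O4. In the AFC of the same sheep it was at 8.86, 17.4, 16.9 and 24.8 CPM. The lowest NPC library thus lay above the highest AFC library, and the mean was 151 ± 76.6 CPM in NPC against 17.0 ± 6.5 CPM in AFC (SD, n = 4 each). The log2 fold change was 3.08 (standard error 0.26, adjusted p = 0.00291 from edgeR), or 8.45-fold, and the differences within the animals lay between 2.67 in O3 and 3.73 in O2.

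ENSOARG00020013409 was at 169 CPM in the NPC of O1, 695 in O2, 96.4 in O3 and 334 in O4. In AFC it was at 26.4, 58.7, 15.0 and 66.3 CPM in the same order. O3 was the lowest and O2 the highest in NPC, and although the animals differed widely the groups did not overlap. The mean was 324 ± 267 CPM in NPC against 41.6 ± 24.8 CPM in AFC (SD, n = 4 each). Its log2 fold change was 2.81 (standard error 0.27, adjusted p = 0.00415 from edgeR), with differences between 2.33 in O4 and 3.56 in O2.

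ENSOARG00020025681 was the gene with the largest change among the 25. It was at 37.3 CPM in the AFC of O1, 8.00 in O2, 42.2 in O3 and 11.3 in O4, and at 0.688, 0.142, 0.585 and 0.420 CPM in their NPC. The NPC libraries held only 34, 7, 25 and 21 reads of it, against 1698, 420, 2014 and 560 reads in AFC, so that its level in old NPC rested on few reads. The log2 fold change was -5.61 (standard error 0.40, adjusted p = 0.00291 from edgeR), 49.0-fold higher in AFC, and the difference was between -6.07 in O3 and -4.61 in O4.

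ENSOARG00020025768 was at 76.2 CPM in the AFC of O1, 17.6 in O2, 47.0 in O3 and 36.8 in O4, and at 3.86, 3.13, 3.53 and 4.86 CPM in their NPC. The AFC libraries varied widely and the NPC libraries little, with means of 44.4 ± 24.5 CPM (SD, n = 4) and 3.85 ± 0.74 CPM (SD, n = 4). The log2 fold change was -3.36 (standard error 0.38, adjusted p = 0.00759 from edgeR), or 10.3-fold higher in AFC, with differences between -4.29 in O1 and -2.47 in O2.

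**Figure D2:**
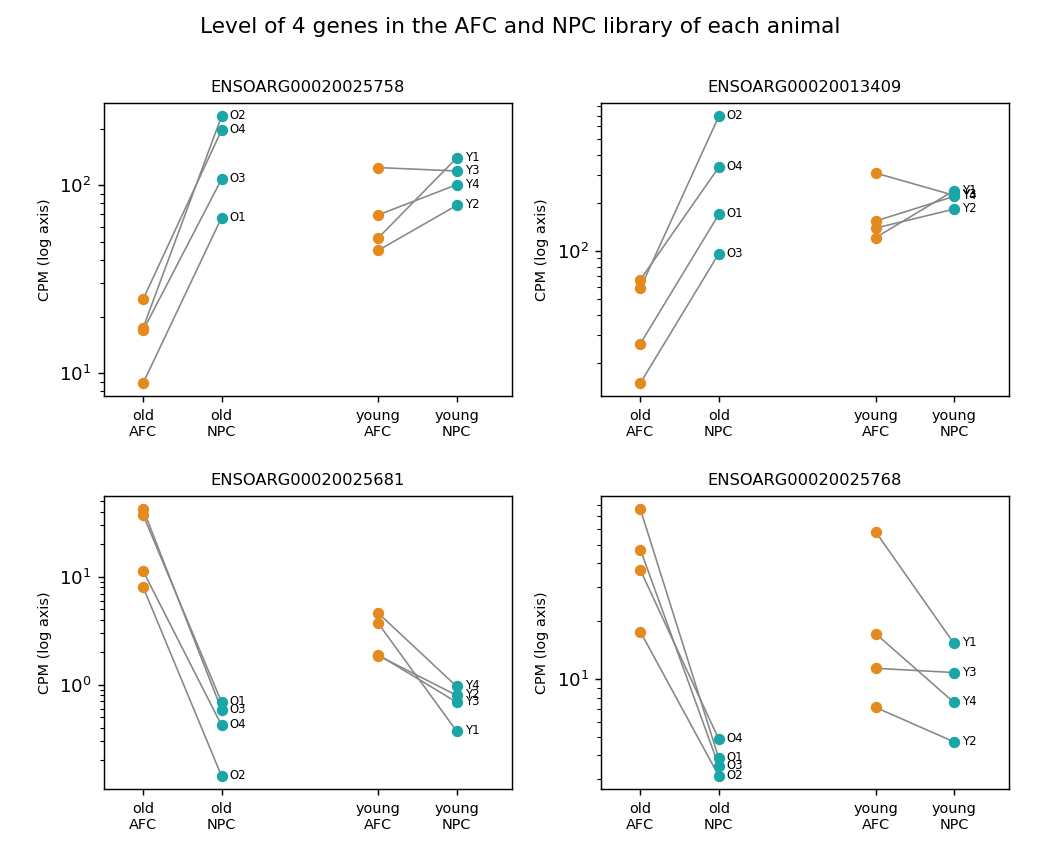
Level in CPM (vertical log axis) of the 4 genes in each AFC library (orange) and NPC library (turquoise), with a line joining the libraries of an animal, for old sheep (O1 to O4) on the left and lambs (Y1 to Y4) on the right of each panel. The old NPC and AFC libraries do not overlap in any panel, and the lines of the lambs are less steep.

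The same 4 genes differed less in the lambs. ENSOARG00020025758 was at 109 ± 26.2 CPM in young NPC against 72.8 ± 35.7 CPM in young AFC (SD, n = 4 each), and its log2 fold change was 0.67 (standard error 0.24). Its young AFC was thus higher than its old AFC, while young and old NPC overlapped. ENSOARG00020013409 was at 216 ± 23.6 CPM in young NPC against 180 ± 85.6 CPM in young AFC (SD, n = 4 each), and its log2 fold change was 0.36 (standard error 0.25). ENSOARG00020025681 was at 0.704 ± 0.25 CPM in young NPC against 3.01 ± 1.36 CPM in young AFC (SD, n = 4 each), and its log2 fold change was -2.03 (standard error 0.36). All 4 young AFC libraries, with at most 4.6 CPM, lay below all 4 old AFC libraries of this gene. ENSOARG00020025768 was at 9.59 ± 4.55 CPM in young NPC against 23.5 ± 23.6 CPM in young AFC (SD, n = 4 each), where Y1 held 58.3 CPM and the other 3 lambs between 7.12 and 17.2. Its log2 fold change in lambs was -0.95 (standard error 0.35). The difference between the ages did not pass in edgeR for any of these 4, as for 0% of all genes tested, with an adjusted p of 0.232 for the first 3 and 0.640 for the fourth, while all 4 passed in DESeq2's paired fit, where the adjusted p was at most 0.00114. The 4 genes had been chosen for their difference in old sheep, which by itself favours a larger difference there.

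**Figure D3:**
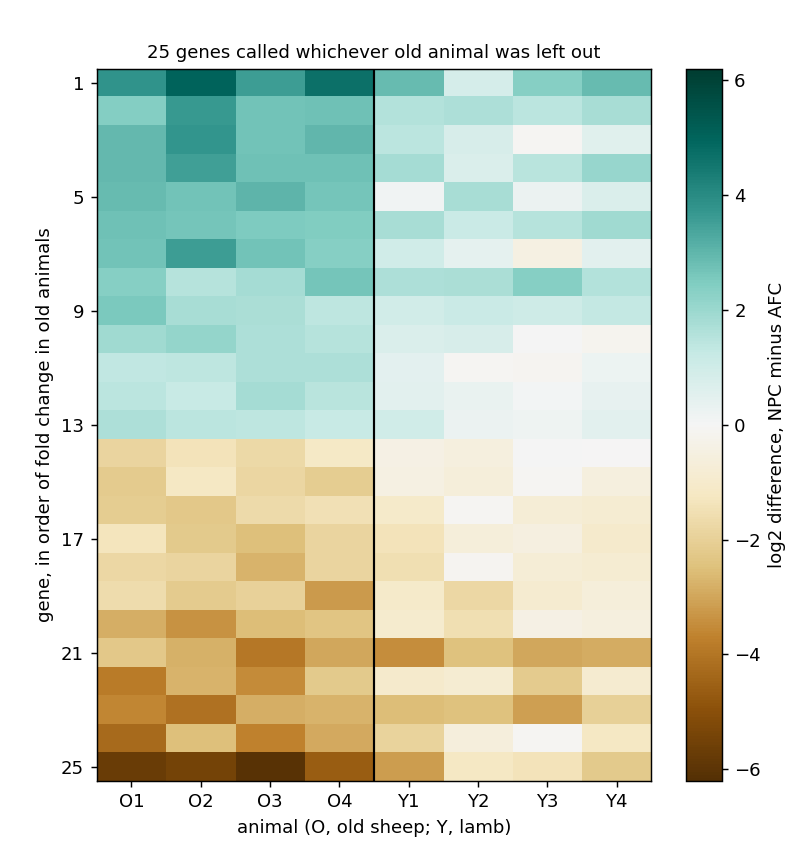
Log2 difference between NPC and AFC (colour, green for higher in NPC and brown for higher in AFC) of the 25 genes that were called whichever old sheep was left out, in rows by their fold change, in each old sheep (O1 to O4) and each lamb (Y1 to Y4). Every old sheep shows the direction of the call in all 25 rows and the lambs in 25 (Y1), 24 (Y2), 21 (Y3) and 24 (Y4). The median difference in the called direction is 2.36 to 2.55 in old sheep and 0.73 to 1.05 in lambs, although in some rows a lamb reaches or passes an old sheep. The genes were chosen on the old sheep, which by itself favours their direction and a larger difference there. All 4 lambs share the direction in 20 of the 25 rows, against 13.4% of all genes tested.

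Whether the differences of old sheep returned in other animals was examined with genes chosen without the animal in question and tested over all libraries too. Of the 35 genes called without O1, all 35 had the same direction in O1, with a median difference of 2.25. Of the 37 genes called without O3, 36 had the same direction in O3, with a median of 2.49. Of 164 genes called without O4, 157 (95.7%) had the same direction in O4, with a median of 1.18. The share with the same direction was lowest in O2. Of 298 genes called without it, 251 (84.2%) had the same direction in O2, with a median of 0.83, and 141 differed at least 2-fold. Relative to the median fitted in the other 3 sheep, the median in the sheep left out was 55.9% for O4, 58.7% for O2, 81.2% for O1 and 127% for O3, so that O2 and O4 were both lower than O1 and O3 on this measure. The 2 medians are unlike measures, since only the difference in the sheep left out carries the prior count of 2. With a prior count of 0.5 the shares were 56.0%, 59.5%, 86.4% and 128% in the same order. The gene lists also differed in size, so the sheep are not ranked by these shares.

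The lambs were then set beside the old sheep that had been left out, on the same genes. For genes called without O1, the medians of the 4 lambs lay between 0.50 in Y3 and 1.03 in Y1, against 2.25 in O1. For those called without O3 they lay between 0.42 and 1.03, against 2.49 in O3, and for those called without O4 between 0.40 and 0.94, against 1.18 in O4. For genes called without O2 they lay between 0.38 and 0.57, against 0.83 in O2. In all 4 comparisons the median of the old sheep lay above that of each of the 4 lambs. The same held in all 20 comparisons when 4 alternative calls, scalings and prior counts were included. The direction did not rank the animals in this way. Of the 298 genes called without O2, 251 had the same direction in O2, against 271 in Y1, 260 in Y4, 244 in Y2 and 236 in Y3. Y1 had 37 of the 37 genes called without O3, against 36 in O3. It had all 35 called without O1, as O1 did, and 156 of the 164 called without O4, against 157 in O4. Without O1, O3 or O4, Y2, Y3 and Y4 had no more than the sheep left out. The gene lists of the 4 comparisons share most of their animals, and the lambs entered the estimate of the spread, so they are given without a test.

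**Figure D4:**
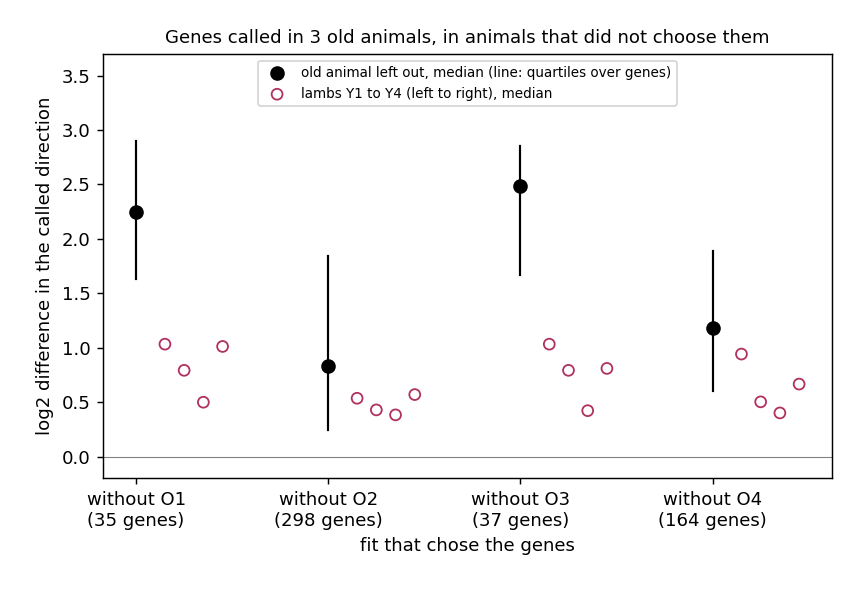
Median log2 difference in the called direction (vertical axis) of the genes called when an old sheep was left out, in that sheep (black point, with a line for the quartiles over the genes) and in the 4 lambs (open circles, Y1 to Y4 from left to right). Each black point, from 0.83 in O2 to 2.49 in O3, lies above the 4 circles beside it.

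Over all 458 called genes, the direction of old sheep was also found in all 4 lambs for 231 genes (50.4%), against 13.4% of all genes tested. It was found in 3 of the 4 lambs for 135 genes and in 2 or fewer for 92, and for these the share over all genes was not counted. The share with the direction in all 4 lambs was 49.8% of the genes higher in NPC and 51.3% of those higher in AFC. Of the 26 genes with a log2 fold change of 4 or more in old sheep, 16 (61.5%) had the same direction in all 4 lambs. Their fitted median was 2.10 in lambs and 4.72 in old sheep, where the second value is raised by the choice of the genes on it. The share did not rise steadily with the difference in old sheep, as it was 48.2% below a log2 fold change of 1, 54.3% from 1 to 2, 45.9% from 2 to 3 and 45.2% from 3 to 4. The lambs were not alike. The direction was shared by 426 of the 458 genes in Y1, 382 in Y4, 365 in Y2 and 316 in Y3, and the median difference fell in the same order from 0.65 in Y1 to 0.26 in Y3. The fitted difference of the lambs had the direction of old sheep in 423 of the 458 genes (92.4%), against 64.9% of all genes tested. Over all 15521 genes tested, called or not, 31 differed at least 2-fold in the same direction in all 8 animals.

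The difference between the ages was tested as the interaction of age and tissue. No gene passed in edgeR (0% of 15521), and limma-voom also called 0. Without adjustment, 851 genes (5.48%) had a p under 0.05 in edgeR, where 776 would be expected if no gene differed. DESeq2 with the animal as a term called 72 genes and without it 5. The interaction uses the old libraries on which the 458 genes were called, so that the overlap of both sets is not given as a result.

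The differences of the animals were compared with each other across all 15521 genes, as a description, since genes are not independent replicates. No library was shared between any 2 animals. Between old sheep, Pearson's r was 0.50 for O1 and O3, 0.48 for O1 and O4, 0.41 for O3 and O4, 0.37 for O1 and O2 and 0.29 for O2 and O4. For O2 and O3 it was -0.02. Spearman's rho for this pair was -0.18. The median over the 6 pairs of old sheep was 0.39, against 0.09 over the 6 pairs of lambs, which ranged from -0.20 to 0.60. O2 was closest to Y1 and Y2, with 0.52 and 0.54, and had -0.25 and -0.20 with Y3 and Y4. O3 was closest among the lambs to Y4 and Y3, with 0.50 and 0.37, and had -0.24 with Y2. O1 and O4 had a Pearson's r between 0.16 and 0.43 with the 4 lambs, while Spearman's rho for O4 was 0.02 with Y3 and 0.03 with Y4.

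**Figure D5:**
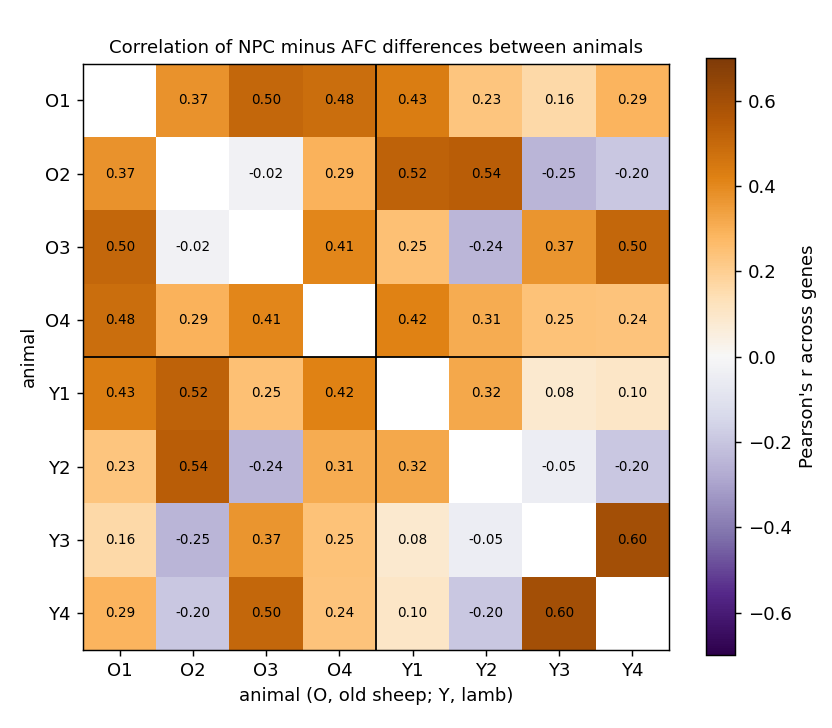
Pearson's r across 15521 genes between the NPC minus AFC differences of each pair of animals (colour and printed value, O for old sheep and Y for lambs). O2 has its highest values with Y1 and Y2 (0.52 and 0.54) and its lowest with Y3 and Y4, O3 is near 0.50 with O1 and Y4, and Pearson's r is positive for O1, O4 and Y1 with every other animal.

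Of the genes that the study lists by identifier for the WGCNA modules it linked to AFC, 2 belong to the Yellow and 1 to the Magenta module. WGCNA groups genes whose levels rise and fall together over the libraries, and the study had picked these genes from these very libraries, so that they are no independent evidence of a direction. The first Yellow gene was at 0.520 ± 0.059 CPM in old NPC against 8.95 ± 4.04 CPM in old AFC (SD, n = 4 each). It had a log2 fold change of -3.97 with a standard error of 0.68 (edgeR, adjusted p = 0.0266), and differences between -4.58 in O3 and -2.88 in O2. The second Yellow gene was at 4.90 ± 0.71 CPM in old NPC against 9.97 ± 2.57 CPM in old AFC (SD, n = 4 each), with a log2 fold change of -0.99 with a standard error of 0.21 (edgeR, adjusted p = 0.0479). The Magenta gene was at 12.0 ± 1.95 CPM in old NPC against 17.8 ± 2.27 CPM in old AFC (SD, n = 4 each), with a log2 fold change of -0.58 with a standard error of 0.12 (edgeR, adjusted p = 0.0438). In each of the 3 the old libraries of the tissues did not overlap, against 7.79% of all genes tested, and 2.95% of all genes were called. In lambs the log2 fold change was -1.99 (standard error 0.70) for the first Yellow gene, -0.57 (0.21) for the second and -0.05 (0.12) for the Magenta gene. The first was higher in NPC in Y2 (0.71) and the second in Y1 (0.006). The Magenta gene was higher in NPC in Y1 (0.13), Y3 (0.05) and Y4 (0.06). The calls of the second Yellow gene and of the Magenta gene lay close to the threshold and were each lost under 14 of 20 alternatives, among them leaving out any of the 4 old sheep and most of the lambs. Their log2 fold changes moved little when an animal was left out, between -1.12 and -0.88 for the second Yellow gene and between -0.62 and -0.51 for the Magenta gene. The call of the first Yellow gene was lost without O1, O3 or O4, at an adjusted p under 0.01 and against a 1.5-fold change. Its log2 fold change lay between -4.30 and -3.73 when an animal was left out.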

How the data were processed

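Counts were those the authors deposited, whole numbers of reads per Ensembl gene for 30722 genes in 16 libraries, without normalisation or filtering. The libraries were stranded mRNA libraries, aligned with STAR 2.7.10b to the Rambouillet genome ARS-UI_Ramb version 2.0 with Ensembl release 111. The submitters' processing notes also name fastp, FastQC 0.11.8 and HTSeq 2.0.3. The strand setting of the counting is not given in the sources used here, so genes that overlap on opposite strands, and paralogues, are less certain than others. A column was assigned to a sample by its library name, and all 16 could be assigned.

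Genes were filtered with edgeR's filterByExpr by group, which kept 15521 genes with 99.98% of the reads, and scaled by TMM. edgeR 4.0.16 in R 4.3.3 fitted a term for each of the 8 animals and a tissue difference within each age over all 16 libraries, so that lambs and old sheep shared the estimate of the spread. P-values came from the quasi-likelihood test, were adjusted by the Benjamini-Hochberg method over all genes tested, and were called under 0.05. Differences within an animal are log2 CPM with a prior count of 2. The pairing came from the animal numbers in the labels. Deviations from the group mean correlated between both libraries of an animal by 0.53 in O1, -0.19 in O2, 0.12 in O3 and 0.35 in O4. By the labels, the libraries of a group came from different animals. A check for duplicated libraries found none (chi-square per degree of freedom of 83.1 to 375 over the 12 pairs of old libraries within a tissue, where a duplicate would be near 1). The study used DESeq2, and DESeq2 1.42.0 and limma 3.58.1 served as alternatives. The steps were tested on simulated data.

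Genes named were the 2 with the largest fold change in each direction among those called whichever old sheep was left out, without overlap of the tissues and with at least 10 CPM in the higher tissue, and the 3 Yellow and Magenta genes. The comparison, lists and tests were chosen with earlier results of these data known. Gene lists by symbol were not analysed here.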

Additional observations from a re-analysis of the deposited data

How the results depend on the processing

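Without the replicate block, so without the pairing of the libraries of an animal, edgeR called 351 genes between old NPC and old AFC, of which 261 were among the 458. With the 8 old libraries alone it called 49 genes with the block, all of them among the 458, and 16 without it, of which 18.8% were higher in NPC. DESeq2 called 1436 genes with the block, which included all 458, and 1117 without it. An adjusted p under 0.01 left 32 genes and a test against a 1.5-fold change left 70. The numbers of genes with RLE size factors (463), without the low-count filter (404), with a mean count of at least 50 (382) and with limma-voom (535 with the block, 366 with the animal as a random effect) stayed within 1.5 times of 458. Leaving out an animal gave between 35 and 490 genes, the lowest without O1. Leaving out a lamb gave 254 genes without Y4, 267 without Y3, 286 without Y1 and 490 without Y2. By edgeR, DESeq2 and limma-voom, each with and without the block or its random effect, 225 genes were called in all 6 fits, 123 higher in NPC. The interaction had 0 calls in edgeR under each setting run, the 8 left-out animals included, and in limma-voom with the block and with the random effect, but 72 in DESeq2 with the block and 5 without it. Called genes with the same direction in all 4 lambs were 231, and between 187 and 233 without the block, with another prior count or with RLE size factors, but 528 among the larger set called by DESeq2 with the block. The median over the 4 old sheep of the median difference in the sheep left out was 1.71, and 0.83 for the genes called by DESeq2 with the block, while it stayed between 1.21 and 1.79 under the other alternatives. Of the 4 genes given by identifier, ENSOARG00020025681 and ENSOARG00020025768 were called under all 20 alternatives, and ENSOARG00020025758 and ENSOARG00020013409 under 19, with edgeR's adjusted p of 0.059 and 0.128 in the 8 old libraries without the block. Each direction was kept. Precision was lowest below 1 CPM, with a median standard error of 0.50, although the share of genes called there (2.27%) was close to that from 10 to 100 CPM (2.39%). The counts for gene lists by symbol were not run, because 0 identifiers could be paired.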

Other observations

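In 762 genes, O2 and O3 differed by at least 2-fold in opposite directions, more than in any other pair of old sheep, where the number lay between 81 and 215. Both differed at least 2-fold in the same direction in 682 genes. Pairs of an old sheep and a lamb had between 62 (O1 and Y1) and 793 (O3 and Y2) genes in opposite directions. Pairs of lambs had between 71 (Y3 and Y4) and 627 (Y2 and Y4). In 251 of the 762 genes O2 had the higher level in NPC, and in 511 it had the higher level in AFC. The numbers are set by the choice of the genes in O2 and O3, but not in the other 6 animals. The direction of O2 was found in 88.6% of the 762 genes in Y2 and 77.0% in Y1, with median differences of 1.36 and 0.40 in that direction. It was found in 11.0% of them in Y4 and 14.7% in Y3, with medians of -0.99 and -0.74. O1 and O4 lay between, with 47.5% and 38.7% and medians of -0.03 and -0.14. Relative to the mean of their group and in the direction of O2, the libraries of O2 deviated by 0.73 in NPC and -1.41 in AFC, those of O3 by -1.19 in NPC and 0.49 in AFC, and those of Y2 by 0.33 in NPC and -1.06 in AFC. Those of Y1 deviated by -0.20 in NPC and -0.52 in AFC, those of Y3 by 0.22 and 0.88, and those of Y4 by -0.32 and 0.67. For O1 the values were 0.41 and 0.63, and for O4 they were 0.09 and 0.38. The labels give no batch.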
